A study of Homo sapiens with 6 samples.

Results

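The genes described here encode the subunits of the mTOR complexes and the regulators that act on them directly. They were taken from the table of normalized gene expression by their symbols, and 10 of 10 were found, each as 1 locus of the 47577 in the table. The values come from OVCAR3, an established line of high-grade serous ovarian carcinoma cells, after 6 h with the solvent DMSO (3 libraries) or with 200 nM THZ531 (3 libraries), a covalent inhibitor of the transcription kinases CDK12 and CDK13. No genotype differed between the groups, no allele or other agent is named, and all 6 libraries stem from 1 cell line. The titles and descriptions of the samples name THZ531, while the treatment protocol gives THZ1, a related compound, in an equal dose, and the libraries are called THZ531 here as in their titles.

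mTOR is a serine/threonine kinase that couples nutrients and growth factors to protein synthesis, autophagy and cell growth. It works in a complex with raptor (mTORC1), which senses amino acids at the lysosome, and in a complex with rictor (mTORC2), which phosphorylates AKT and SGK kinases. The small GTPase RHEB switches mTORC1 on, the TSC complex switches RHEB off by stimulating its GTP hydrolysis, and DDIT4 (REDD1) is a stress-induced protein that restrains mTORC1 through the TSC complex. In ovarian cancer, as in other carcinomas, the pathway lies downstream of PI3K and AKT.

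The study assayed RPTOR at a boundary between an exon and an intron. It reports that THZ531 raised the use of an alternative last exon in that intron in OVCAR3 cells and organoids. Lower distal exons are shown in its read profile of OVCAR3 cells. The study correlates selection of this last exon with reduced phosphorylation of an mTORC1 substrate. It also reports an effect of THZ531 on a set of mTORC1 signaling genes, and lower RPTOR in independent data from another cell line. The gene values below do not resolve the use of this last exon, so that boundary is shown first. The reference sequence of chr17:80823108-80823351 (hg38, plus strand) holds 116 bases of exon 9 and then 128 bases of intron 9 in the numbering of the MANE Select transcript, where the study's primer names count this exon and intron as number 10, and capitals mark the sites of the forward and the intronic reverse primer.

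RPTOR exon 9 to intron 9: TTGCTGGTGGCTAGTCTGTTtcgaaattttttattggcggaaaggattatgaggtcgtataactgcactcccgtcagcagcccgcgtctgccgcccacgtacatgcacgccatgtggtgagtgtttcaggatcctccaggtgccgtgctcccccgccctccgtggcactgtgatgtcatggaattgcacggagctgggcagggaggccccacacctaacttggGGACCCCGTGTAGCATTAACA

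The intron begins with the bases gt. It spans chr17:80823224-80837921 (14698 bp) and holds the polyadenylation hexamer AATAAA 11 times on the strand of the gene, the first time 943 bases after its start (chr17:80824166-80824171). The spliced assay pairs the same forward primer with a reverse primer in exon 10 (chr17:80837933-80837951).

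The promoters of TSC1, RHEB and DDIT4 are shown because their transcripts were the members called higher in THZ531. Each line holds the 250 bases before the RefSeq start (GRCh38.p14, on the strand of the gene), and capitals mark matches on either strand to TATAAA, to the E-box CACGTG, to the CRE half-site TGACGT or to the ETS core CCGGAA. The windows are chr9:132944617-132944866 (minus strand), chr7:151519896-151520145 (minus strand) and chr10:72273674-72273923 (plus strand).

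TSC1 promoter: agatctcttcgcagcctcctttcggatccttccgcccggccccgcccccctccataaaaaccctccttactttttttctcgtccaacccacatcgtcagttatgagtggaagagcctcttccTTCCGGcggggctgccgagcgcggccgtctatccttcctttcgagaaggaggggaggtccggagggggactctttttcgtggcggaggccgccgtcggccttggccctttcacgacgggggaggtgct
RHEB promoter: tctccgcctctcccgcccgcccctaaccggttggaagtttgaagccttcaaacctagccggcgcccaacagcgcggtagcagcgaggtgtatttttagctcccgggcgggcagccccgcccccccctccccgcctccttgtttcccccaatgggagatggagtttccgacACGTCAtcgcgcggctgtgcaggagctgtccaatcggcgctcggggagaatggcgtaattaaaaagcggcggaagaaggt
DDIT4 promoter: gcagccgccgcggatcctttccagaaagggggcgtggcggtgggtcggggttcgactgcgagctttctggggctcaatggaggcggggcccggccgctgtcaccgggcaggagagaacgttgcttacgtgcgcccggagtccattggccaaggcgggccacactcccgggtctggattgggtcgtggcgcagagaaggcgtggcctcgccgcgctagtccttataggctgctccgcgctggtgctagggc

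The TSC1 window held 1 ETS core and the RHEB window 1 CRE half-site, while none of these motifs lay in the DDIT4 window. Among 35116 RefSeq windows of the same length, 14.5% held an ETS core, 7.1% a CRE half-site, 6.34% an E-box and 10.7% TATAAA. The GC box GGGCGG, left in lower case, occurred 2 times in TSC1, 4 times in RHEB and not in DDIT4, and 42.6% of all windows held it. No motif of these 5 was therefore shared by the promoters of all 3 genes. Their GC content was 62.0% in TSC1, 63.2% in RHEB and 68.8% in DDIT4, against a median of 58.0% over all windows. Of the 10 members, 7 had an entry in the promoter table. Among these, the members not called had a GC content of 47.2% (RPTOR), 55.6% (MTOR), 76.0% (RICTOR) and 71.6% and 77.2% (windows of TSC2). RPTOR had 1 TATAAA match. RICTOR held 1 ETS core and 4 GC boxes, and the TSC2 windows held 1 and 2 ETS cores. GC content and these motifs thus did not set the members called higher apart from those not called.

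Gene counts rest on 60146046 to 70986130 reads a library in DMSO and on 53054048 to 57953296 in THZ531. The values are these counts divided by a factor per library, called normalized reads below, and are not corrected for gene length. The normalized reads of a library summed to 55389676 to 56639224 in DMSO and to 65875609 to 66820371 in THZ531. CDK12, a target of the compound, had 6762 ± 105 normalized reads (mean ± SD, n = 3 libraries per group throughout) in DMSO and 8835 ± 357 in THZ531, and CDK13 had 3918 ± 149 and 3863 ± 44.8, and neither value measures inhibition of the kinases. All 8 ovarian epithelial markers were above the minimum of 10 normalized reads in 3 libraries, and their sum was between 435984 and 446692 in DMSO and between 555188 and 567568 in THZ531. They did not move together, since PAX8 fell from 11272 ± 545 to 1241 ± 121 while KRT8 had 153783 ± 3185 in DMSO and 230529 ± 2829 in THZ531. Of the 5 fibroblast markers 2 were above the minimum, COL1A1 and COL1A2, and the sum of the list was between 995 and 1088 in DMSO and between 2140 and 2412 in THZ531. Nearly all of this sum was COL1A1 (995 ± 47.5 and 2190.4 ± 141), while COL1A2 had 37.4 ± 8.33 and 56.7 ± 19.7, PDGFRB had 11.5 ± 6.32 and 9.29 ± 7.42, and DCN and LUM were at 0 in THZ531. The leukocyte list (3 of 5 above the minimum, CD3E at 0) summed to between 528 and 598 in DMSO and between 517 and 598 in THZ531. The endothelial list (3 of 3) summed to between 162 and 199 in DMSO and between 213 and 299 in THZ531, with 89.0 ± 28.3 and 144 ± 5.48 for VWF and 63.9 ± 13.8 and 59.3 ± 24.5 for PECAM1. The part of these markers in the results below was not tested. In bulk RNA, fewer cells expressing a gene and less RNA of it per cell cannot be told apart.

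A member was called where limma, fitted over 17568 loci, gave a difference of 1.5-fold or more with an unadjusted p no larger than 0.05, and adjusted p-values are those of Benjamini and Hochberg over the same loci. By these thresholds 3 of the 10 members rose in THZ531 (TSC1, DDIT4 and RHEB), 1 fell (DEPTOR) and 6 were not called. Over all loci tested, 39.5% were called, 15.7% as higher and 23.9% as lower, so the 40.0% of members called is close to the share over all loci. The median log2 fold change was 0.10 over the members and -0.01 over all loci. The groups did not overlap for 9 members, 6 of them higher and 3 lower in THZ531, and over all loci 71.7% of the groups did not overlap. The same 9 members had an adjusted p of at most 0.05, which 68.6% of all loci had. The groups of 5 members were thus apart without reaching the fold threshold.

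**Figure D1:**
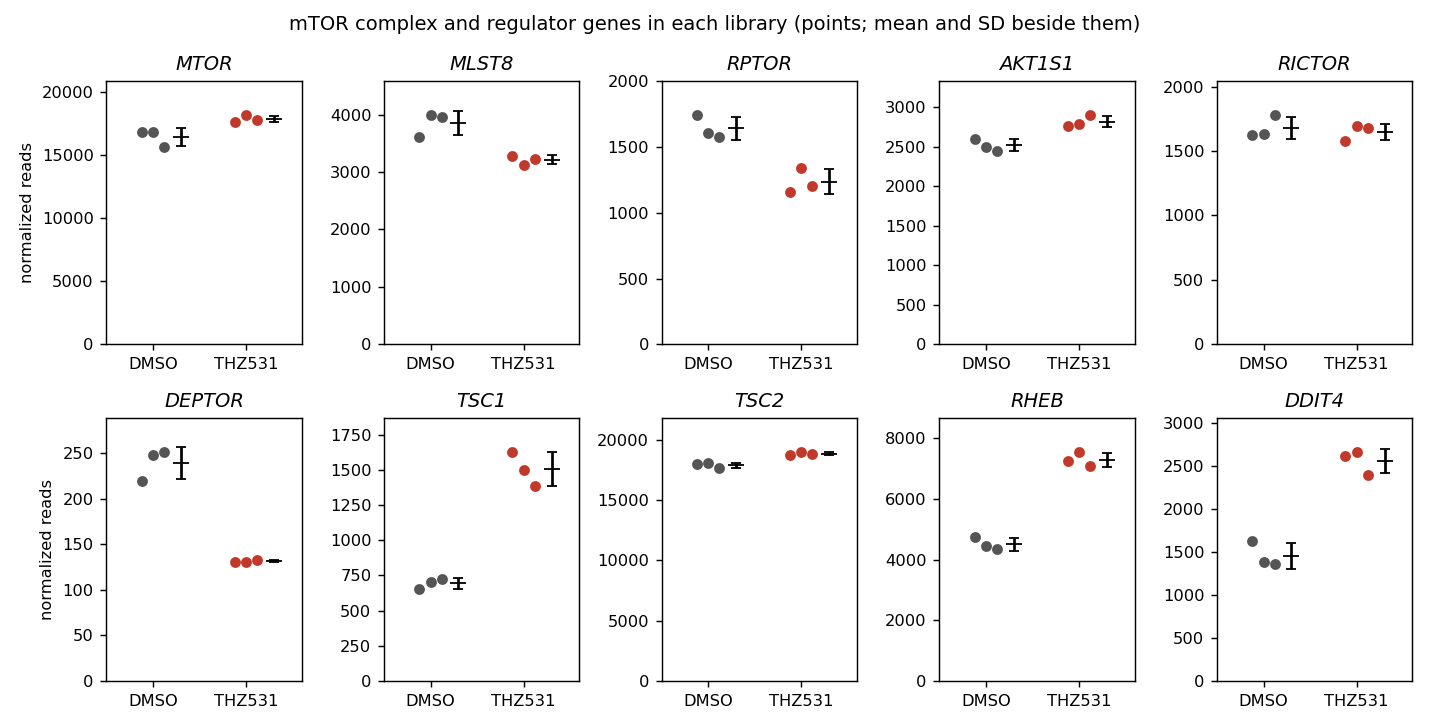
Normalized reads (vertical axes, linear and starting at 0, a scale of its own for each gene) of the 10 members in the 3 DMSO libraries (grey points) and the 3 THZ531 libraries (red points), with the mean and SD as a bar beside each group. The groups stand clear of each other for TSC1, RHEB, DDIT4 and DEPTOR, lie close for MTOR, TSC2 and AKT1S1, and overlap for RICTOR.

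MTOR, the catalytic subunit of both complexes (chr1:11106535-11262551, minus strand, 58 exons), had 16819, 16812 and 15633 normalized reads in DMSO and 17618, 18132 and 17759 in THZ531. All THZ531 libraries lay above all DMSO libraries, although by less than the distance between the lowest and the highest DMSO library. The mean was 16421 ± 683 in DMSO and 17836 ± 265 in THZ531, a log2 fold change of 0.12 (SE 0.0368, 95% CI 0.04 to 0.20, limma, adjusted p = 0.0088), below the threshold for a call. The sign of this difference depends on the scaling, since the log2 fold change was -0.12 when all libraries were given equal totals (the same-total scaling) and -0.37 when they were scaled to the ribosomal protein gene RPL34.

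MLST8, the WD40 subunit that binds the kinase domain in both complexes (chr16:2205204-2209453, plus strand, 9 exons), had 3609, 3988 and 3966 normalized reads in DMSO and 3286, 3127 and 3226 in THZ531. The THZ531 libraries lay close together and all below the DMSO libraries. MLST8 had a log2 fold change of -0.26 (SE 0.0492, 95% CI -0.37 to -0.16, limma, adjusted p = 0.00019) and short of a call. With scaling to RPL34 it was -0.75 and MLST8 was called lower.

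RPTOR encodes raptor, the scaffold that recruits the substrates of mTORC1 (chr17:80544819-80966371, plus strand, 34 exons). Its normalized reads were 1742, 1611 and 1574 in DMSO and 1159, 1341 and 1207 in THZ531. The groups did not overlap, and the highest THZ531 library was nearer to the DMSO libraries than the other two. The difference on the log2 scale was -0.41 (SE 0.0676, 95% CI -0.56 to -0.27, limma, adjusted p = 5e-05), which does not reach the fold threshold. Same-total scaling gave -0.65 and RPL34 scaling -0.90, and RPTOR was called lower under both.

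AKT1S1 encodes PRAS40, an inhibitory subunit of mTORC1 that is a substrate of AKT (chr19:49869033-49878356, minus strand, 5 exons). It had 2602, 2503 and 2453 normalized reads in DMSO and 2763, 2795 and 2899.9 in THZ531. Each THZ531 library was above each DMSO library by a small margin. The log2 fold change was 0.16 (SE 0.048, 95% CI 0.06 to 0.26, limma, adjusted p = 0.0069), not a call, and -0.080 with same-total and -0.33 with RPL34 scaling.

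RICTOR, the defining subunit of mTORC2 (chr5:38937919-39074405, minus strand, 38 exons), had 1627.5, 1635 and 1778 normalized reads in DMSO and 1576, 1693 and 1680.4 in THZ531. It was the member whose groups overlapped, and its highest and its lowest library were 1 of DMSO and 1 of THZ531. The log2 fold change was -0.03 with a 95% CI of -0.15 to 0.10 (limma, adjusted p = 0.71), and the interval lies inside the 1.5-fold threshold on both sides. The sign was not stable, with 0.089 under upper-quartile scaling, 0.015 without DMSO replicate 3 and 0.0067 without THZ531 replicate 1.

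DEPTOR, an inhibitory protein that binds mTOR in both complexes (chr8:119873717-120050918, plus strand, 9 exons), had the fewest normalized reads of the members and was the one that fell. Its normalized reads were 219, 248 and 251 in DMSO and 131, 131 and 133 in THZ531. The THZ531 libraries were nearly equal and far below every DMSO library. The mean was 1.82-fold higher in DMSO, with a log2 fold change of -0.86 (SE 0.144, 95% CI -1.16 to -0.55, limma, adjusted p = 6.4e-05). Its standard error was the largest of the 10 members. With any 1 library left out the log2 fold change lay between -0.92 and -0.82, and over the 4 scalings between -1.35 and -0.74.

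TSC1 encodes hamartin, the subunit that stabilizes the TSC complex (chr9:132891349-132944634, minus strand, 23 exons), and had the largest log2 fold change of the members. It had 652, 705 and 724 normalized reads in DMSO and 1627, 1503 and 1389 in THZ531. Every THZ531 library was far above every DMSO library, and the THZ531 libraries differed more from each other than the DMSO libraries did. The mean rose from 693.6 ± 37.3 to 1506 ± 119, which is 2.17-fold, with a log2 fold change of 1.12 (SE 0.0747, 95% CI 0.96 to 1.27, limma, adjusted p = 1.9e-09). Of all loci tested, 93.2% had a lower log2 fold change. TSC1 was called higher under all 4 scalings, with 0.87 for same-total and 0.62 for RPL34 scaling. With the deposited scaling it was the one member past a fold change of 2.

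TSC2 encodes tuberin, the GTPase-activating subunit that acts on RHEB (chr16:2047985-2089491, plus strand, 42 exons). It had 17949, 18058 and 17653 normalized reads in DMSO and 18709.5, 18973 and 18834 in THZ531. The groups did not overlap, but the gap was small beside the level. On the log2 scale the difference was 0.07 (SE 0.0319, 95% CI 0.01 to 0.14, limma, adjusted p = 0.048), not a call, and the value was -0.17 with same-total and -0.42 with RPL34 scaling.

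RHEB, the GTPase that activates mTORC1 (chr7:151466012-151519923, minus strand, 8 exons), had 4740 normalized reads in DMSO replicate 1, 4437 in replicate 2 and 4338 in replicate 3, and 7258, 7544 and 7084 in THZ531. The THZ531 libraries were all well above the DMSO libraries. The mean rose from 4505 ± 209 to 7296 ± 232, which is 1.62-fold, with a log2 fold change of 0.70 (SE 0.0442, 95% CI 0.60 to 0.79, limma, adjusted p = 1e-09). Same-total scaling gave 0.45 and RPL34 scaling 0.20, and RHEB was not called under these. The processed pseudogenes RHEBP1, RHEBP2 and RHEBP3 of GENCODE have no locus of their own under these symbols in the table, and how reads shared with them were counted is not given in the sources used here, so the value of RHEB is uncertain to that extent.

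DDIT4 (chr10:72273920-72276036, plus strand, 3 exons) had 1633, 1383.5 and 1356 normalized reads in DMSO and 2619.7, 2663 and 2399 in THZ531. The highest DMSO library was well below the lowest THZ531 library. The mean rose from 1458 ± 152.5 to 2561 ± 141, which is 1.76-fold, with a log2 fold change of 0.82 (SE 0.07, 95% CI 0.67 to 0.96, limma, adjusted p = 3.5e-08). Same-total scaling gave 0.57, just short of a call, and RPL34 scaling 0.32.

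**Figure D2:**
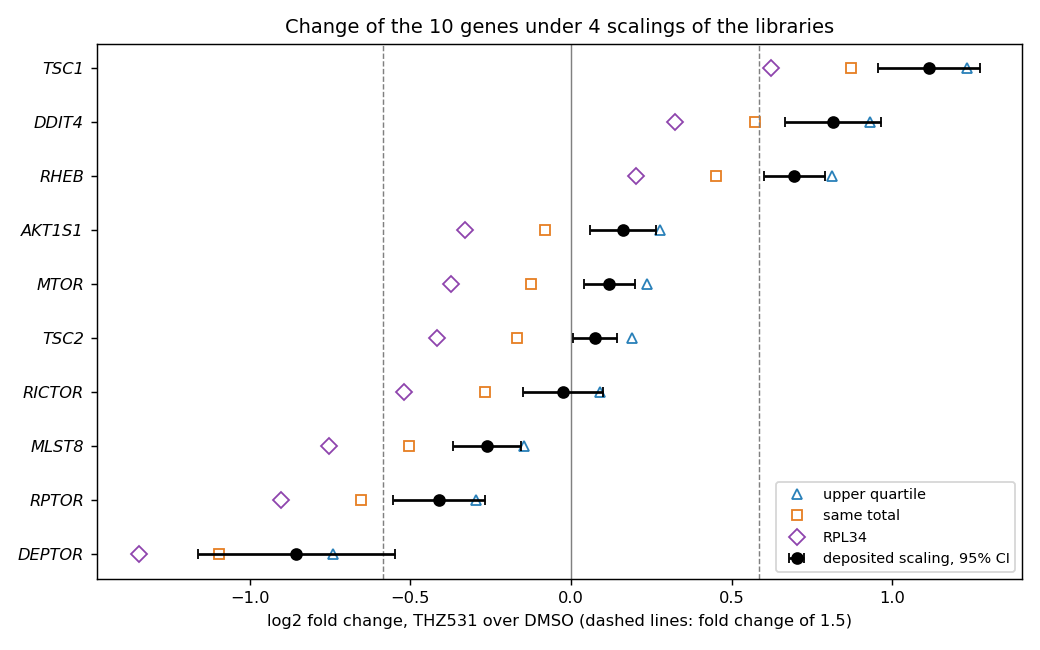
Log2 fold change of THZ531 over DMSO (horizontal axis) for the 10 members, with the deposited scaling (black points, bars are 95% CIs from limma) and 3 other scalings (upper quartile, same total, RPL34), and dashed lines at a fold change of 1.5. TSC1 lies beyond the right line and DEPTOR beyond the left line under each of the 4 scalings, while MTOR, TSC2 and AKT1S1 lie on either side of 0 depending on the scaling.

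The order of the members did not change between the scalings, because a scaling moves the log2 fold changes of all loci together, by -0.24 for the same total, -0.49 for RPL34 and 0.11 for the upper quartile. With equal totals 1 member was called higher and 2 lower, against 9.38% and 32.0% of all loci. RPL34 scaling gave 1 higher and 3 lower, against 6.14% and 42.8%, and the upper quartile gave 3 and 1, against 20.6% and 20.7%. Ratios of members within a library do not depend on this factor. In each of 8 ratios the 3 THZ531 libraries lay apart from the 3 DMSO libraries. This gives p = 0.1 in an exact two-sided permutation test, the smallest p that 3 against 3 libraries allow, and an adjusted p of 0.1 over the 8 ratios. The share of ratios apart was not computed over pairs of all loci, and of single loci 71.7% were apart. Several ratios share MTOR, RPTOR or TSC2, so they are not independent of each other.

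Within the complexes, the log2 ratio of RPTOR to MTOR was -3.27, -3.38 and -3.31 in DMSO and -3.92, -3.76 and -3.88 in THZ531, a difference of -0.53. The ratio of RICTOR to MTOR differed by -0.15 and that of MLST8 to MTOR by -0.38. RPTOR against RICTOR, the scaffolds of mTORC1 and mTORC2, differed by -0.39. Relative to MTOR, the transcripts of these 3 subunits were thus lower in all THZ531 libraries, that of RICTOR by a small margin. Without DMSO replicate 3 the difference for RICTOR over MTOR was -0.07. For the inhibitors, the difference was 0.57 (1.49-fold) for AKT1S1 over RPTOR and -0.98 for DEPTOR over MTOR. In the TSC and RHEB branch, the log2 ratio of TSC1 to TSC2 was -4.78, -4.68 and -4.61 in DMSO and -3.52, -3.66 and -3.76 in THZ531, a difference of 1.04 (2.06-fold). The ratio of RHEB to TSC2 differed by 0.62 (1.54-fold). Both ratios were higher in each of the THZ531 libraries.

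**Figure D3:**
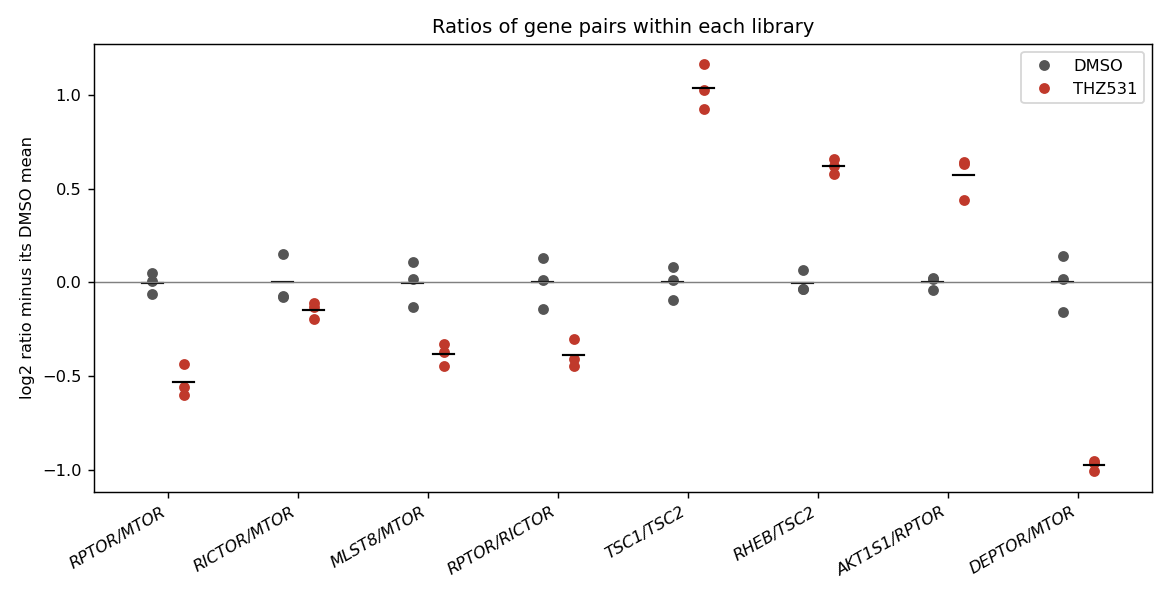
Log2 ratio of 8 pairs of members within each library, minus the mean of the DMSO libraries (vertical axis), for DMSO (grey) and THZ531 (red), with short lines at the group means. The THZ531 points lie below 0 for RPTOR, RICTOR, MLST8 and DEPTOR relative to MTOR and above 0 for TSC1 and RHEB relative to TSC2, with RICTOR over MTOR the closest to the DMSO points.

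Levels of different genes were compared after division by the exon length of the MANE Select transcript, as normalized reads per kb. In DMSO the order was TSC2 (2788 ± 32.6), MLST8 (2307 ± 127), RHEB (2202 ± 102), MTOR (1883 ± 78.3), AKT1S1 (1419 ± 42.9), DDIT4 (835.8 ± 87.4), RPTOR (240.2 ± 12.9), RICTOR (176.2 ± 8.88), DEPTOR (93.19 ± 6.87) and TSC1 (80.67 ± 4.34). Of the neighbours in this order, MLST8 and RHEB overlapped between libraries and the others did not. Both scaffolds, DEPTOR and TSC1 stood well below the other 6 members. In THZ531 RHEB stood first with 3566 ± 114, ahead of TSC2 with 2937 ± 20.5, MTOR with 2045 ± 30.4 and MLST8 with 1923 ± 48.0. TSC1 moved from the last place to 175.2 ± 13.9 and overlapped both neighbours, RPTOR with 180.7 ± 13.8 and RICTOR with 173.0 ± 6.74, and DEPTOR was last with 51.23 ± 0.509. The transcript of TSC2 exceeded that of TSC1 per kb by 34.6 ± 2.12 times in DMSO and by 16.8 ± 1.38 times in THZ531. MTOR exceeded RPTOR by 7.85 ± 0.309 times and then 11.3 ± 0.68 times, and RICTOR by 10.7 ± 0.957 and 11.8 ± 0.35 times. These levels assume that the MANE Select transcript stands for the exons that were counted.

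The members differ widely in length, and the table gives no reads on introns of the members apart from the loci described below. RPTOR spans 421.553 kb, DEPTOR 177.202 kb, MTOR 156.017 kb and RICTOR 136.487 kb, and their introns hold AATAAA on the strand of the gene 242, 167, 118 and 145 times. Of these 4 longest members none was called higher and DEPTOR was called lower, against 15.7% and 23.9% of all loci tested. Their log2 fold changes ran from -0.86 to 0.12, and an effect of length was not tested. TSC1 (53.286 kb) and RHEB (53.912 kb) are of nearly the same length and hold AATAAA 22 and 27 times in introns, TSC2 spans 41.507 kb with 4, and DDIT4 (2.117 kb), MLST8 (4.25 kb) and AKT1S1 (9.324 kb) hold none. The 3 members without an intronic AATAAA had log2 fold changes of 0.82, -0.26 and 0.16, so short members stood on both sides of 0. Per 10 kb of intron, RICTOR had the most hexamers (11.42), DEPTOR 9.56, MTOR 8.01, RPTOR 5.84, RHEB 5.21 and TSC1 4.92. Together with the other pathway genes described below, the median span was 40.3 kb for 14 genes called higher, 58.3 kb for 14 called lower and 42.3 kb for 51 not called. Over all loci with a symbol these medians were 28.1, 28.3 and 27.8 kb.

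**Figure D4:**
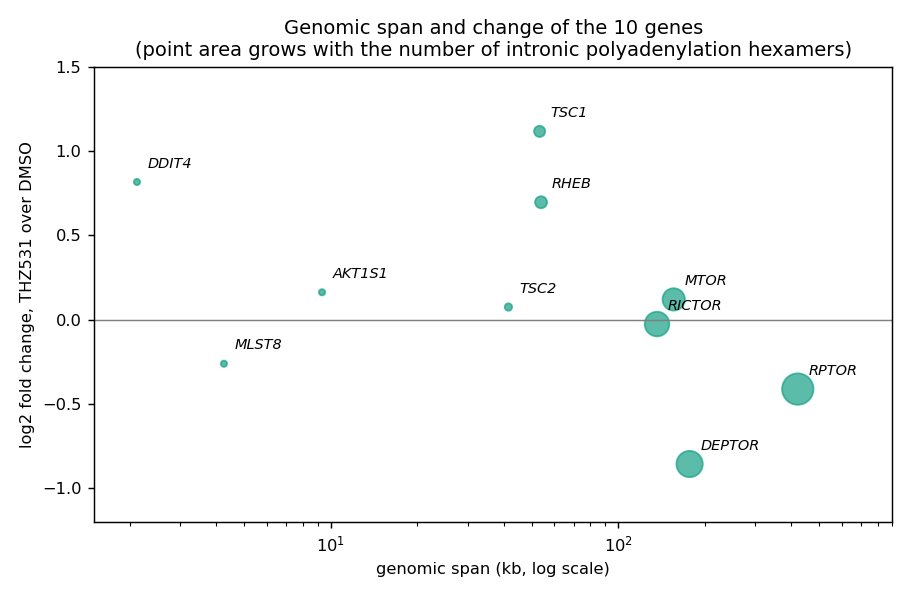
Log2 fold change of THZ531 over DMSO (vertical axis) against the genomic span in kb (horizontal axis, log scale) for the 10 members, with the area of a point growing with the number of AATAAA hexamers in its introns. The 4 members above 100 kb lie at or below 0.12, and the 6 shorter ones run from -0.26 (MLST8) to 1.12 (TSC1).

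Inside a member or across one of its ends lie 11 other loci, and 4 of them passed the minimum for the test. An unnamed locus of 2020 bp in the last intron of RHEB, intron 7 (chr7:151467918-151469937), shares no base with its exons. It had 58.0, 62.2 and 46.3 normalized reads in DMSO and 114.6, 138.7 and 137.7 in THZ531, so every THZ531 library was well above the DMSO libraries. It rose with a log2 fold change of 1.22 (SE 0.216, limma, adjusted p = 1e-04), and of 0.98 and 0.74 under same-total and RPL34 scaling. Its fold change and that of RHEB were in the same direction, and the difference between them was not tested. PKD1 overlaps the last exon of TSC2 by 784 bases and had a log2 fold change of -0.09 (limma, adjusted p = 0.18), and BRICD5 overlaps the last exon of MLST8 by 201 bases with -0.17 (limma, adjusted p = 0.33). The strand setting of the counting is not given in the sources used here, so reads in these stretches may be split or lost between the partners. TBC1D17 shares part of the span of AKT1S1 but none of its MANE exons, and its log2 fold change was -0.36 (limma, adjusted p = 5e-05), below the threshold for a call, against 0.16 for AKT1S1. The other 7 loci, inside or across MTOR, RPTOR, AKT1S1 and DEPTOR, had at most 5.04 normalized reads in any library. The pair of loci within RPTOR introns was at 0 in all 6 libraries. They lie in introns 4 and 7, not in intron 9 with the last exon of the study, and so do not bear on that event.

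The other genes of the pathway were taken from a list of 73 in 9 role groups. Of these 72 are in the table and 69 passed the minimum, and IRS1, which was at 0, and DDIT4L were among those that did not. There were 11 called higher and 13 called lower, 34.8% of those tested against 39.5% over all loci, and their median log2 fold change was -0.07. As for the members, this share is close to that over all loci. The split between higher and lower depends on the scaling, with 4 and 20 for the same total, 2 and 33 for RPL34, and 13 and 11 for the upper quartile. No gene called here changed sign under a scaling, and of those called higher, RRAGB and SGK1 kept the call with RPL34. With the same total, 7 of those called higher lost the call: LAMTOR3 (0.37), FLCN (0.43), FNIP2 (0.53), SEH1L (0.38), PRKAA1 (0.57), PRKAB2 (0.54) and GRB10 (0.35).

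Of 6 genes for subunits of mTORC2 or for the assembly of mTOR complexes, PRR5L fell, from 611 ± 44.8 to 247 ± 4.44 normalized reads (log2 fold change -1.30, limma, adjusted p = 1.1e-08). The other 5 were not called. TBC1D7, the third subunit of the TSC complex, rose from 919 ± 90.4 to 1663 ± 90.0 (0.86, limma, adjusted p = 4.5e-08), so that 2 of the 3 TSC subunits, TSC1 and TBC1D7, were called higher, TBC1D7 not with RPL34 scaling (0.37). The TBC1D7 libraries had 1010, 918 and 829 normalized reads in DMSO and 1729, 1561 and 1699.7 in THZ531, without overlap. RHEBL1, the paralog of RHEB, had 147 ± 43.9 and 135 ± 23.3, with overlapping groups.

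At the lysosome, where Rag GTPases held by the Ragulator complex recruit mTORC1, 2 of 10 genes rose and 1 fell. RRAGB, a Rag GTPase, rose from 413, 405 and 358 normalized reads to 1319.9, 1219.7 and 1259 (log2 fold change 1.69, SE 0.0818, limma, adjusted p = 4.6e-11). The THZ531 libraries lay far above those of DMSO. The Ragulator subunit LAMTOR3 rose by 0.62 on the log2 scale (limma, adjusted p = 3.5e-07) and lost its call without DMSO replicate 1 (0.56) or THZ531 replicate 1 (0.58). SLC38A9, the arginine-sensing transporter of the lysosomal membrane, fell from 1201 ± 48.1 to 493 ± 5.27 (-1.28, limma, adjusted p = 2.8e-10). All 3 genes of the folliculin complex, which acts on RagC and RagD, were called, in both directions, against 39.5% of all loci tested. FLCN rose by 0.67 and FNIP2 by 0.77 on the log2 scale, while FNIP1 went from 1174 ± 68.7 to 499 ± 57.5 (-1.24, limma, adjusted p = 5.1e-09). Without DMSO replicate 3, FLCN was just below the fold threshold. FLCN and FNIP2 were not called with same-total (0.43 and 0.53) or RPL34 scaling (0.18 and 0.28).

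Of KICSTOR, which anchors the Rag-inactivating complex GATOR1 at the lysosome, KICS2 (234 ± 10.5 to 69.9 ± 17.8, log2 fold change -1.76) and ITFG2 (817 ± 74.8 to 428 ± 53.4, -0.94) fell, with adjusted p-values in limma of 7.3e-07 and 6.4e-07, and both were called under all 4 scalings. KICS2 had 229, 227 and 247 normalized reads in DMSO and 64.2, 55.7 and 89.9 in THZ531, and the groups were far apart. KPTN, of the same complex, had 272 ± 47.3 and 295 ± 27.2 and was not called. In GATOR2, WDR59 fell (1045 ± 58.2 to 349.9 ± 49.99, limma, adjusted p = 1.4e-09) and SEH1L, also a nucleoporin, rose (7105 ± 266 to 10971 ± 67.3, limma, adjusted p = 6e-10). Of the amino acid sensors, the stress-induced leucine sensor SESN2 rose by 0.90 on the log2 scale (limma, adjusted p = 8.4e-07) and the arginine sensor CASTOR1 went from 213 ± 24.2 to 84.2 ± 12.1 (-1.33, limma, adjusted p = 6.2e-06).

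Upstream, among 16 genes of PI3K, AKT, LKB1 and AMPK, the calls were the AMPK subunits PRKAA1 (log2 fold change 0.81) and PRKAB2 (0.78), which rose, and PRKAA2 (-0.80) and PRKAB1 (-0.76), which fell. The catalytic subunits PRKAA1 and PRKAA2 thus went in opposite directions, as did the beta subunits. AKT1 and AKT2 were not called, with values of 0.04 and 0.38. Among 15 substrates and effectors, 2 rose and 3 fell. SGK1, a kinase activated by mTORC2, rose from 296, 312 and 328 normalized reads to 1333, 1256 and 1419.8 (log2 fold change 2.10, SE 0.0832, limma, adjusted p = 5.4e-12). TFEB, a transcription factor for lysosomal genes that mTORC1 keeps in the cytoplasm, fell from 458, 446 and 454 to 88.2, 48.9 and 77.4 (-2.69, SE 0.191, limma, adjusted p = 3.8e-09). In both genes the groups were several times further apart than the libraries of a group. ULK1, the autophagy kinase, had a log2 fold change of -0.64 and the translational repressor EIF4EBP2, named after its value was seen, -0.62, and neither was called with upper-quartile scaling (-0.52 and -0.50). GRB10, an adaptor that mTORC1 stabilizes, was at 0.59, just past the threshold, and was not called on the recovered reads by edgeR (0.57), with a pseudocount of 10 (0.58), or without DMSO replicate 1 (0.57), DMSO replicate 3 (0.58) or THZ531 replicate 3 (0.54). Scaling lowered it most, to 0.35 with the same total and 0.097 with RPL34.

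**Figure D5:**
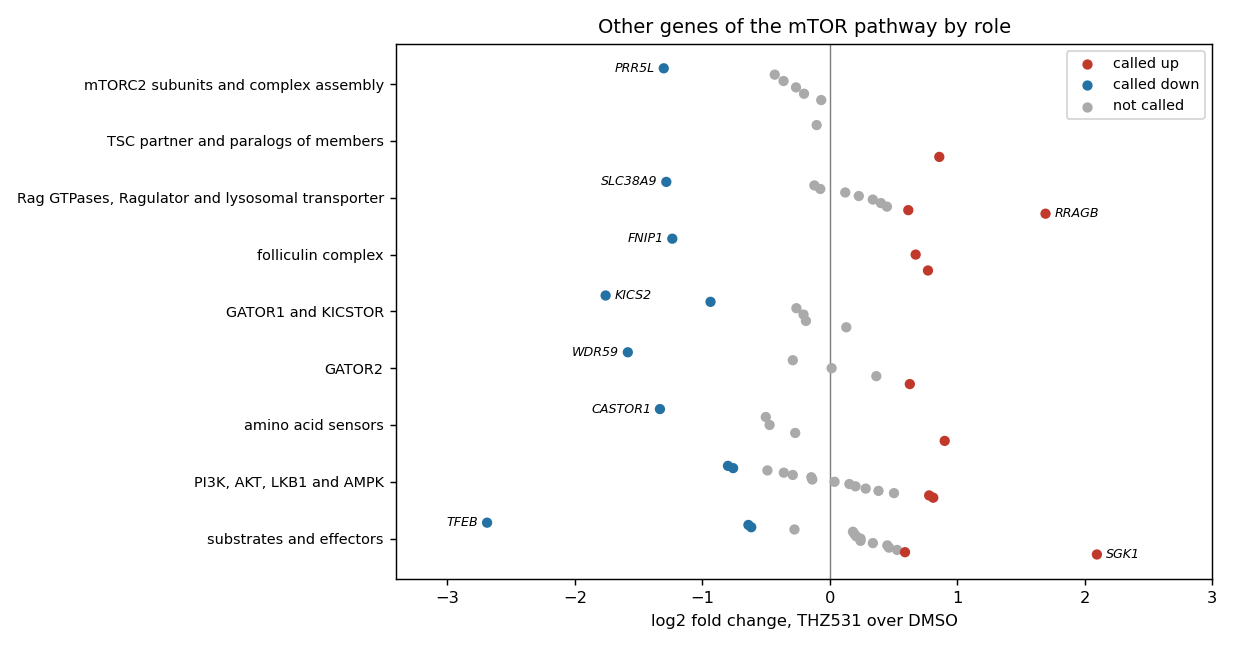
Log2 fold change of THZ531 over DMSO (horizontal axis) of 67 other pathway genes tested, by role group, with genes called higher in red, genes called lower in blue and genes not called in grey, and names for log2 fold changes beyond 1 in either direction. TFEB at -2.69 and SGK1 at 2.10 are the ends of the range, and the groups with calls in both directions include the folliculin complex, GATOR2 and AMPK.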

How the data were processed

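PolyA plus RNA from 6 libraries was sequenced. Per the labels, the paper and the submitters' processing notes, the authors mapped reads to hg38 with STAR (2.7.5a in the notes), counted them with featureCounts on FAST DB genes and deposited a signal, counts divided by a DESeq2 size factor per library. In every library 100% of values above 0 were whole multiples of 1 step (within 0.01 read), so whole reads were recovered. Symbols were matched to the table, gene structures to GENCODE v44. On log2(value + 1), limma 3.58.1 (R 4.3.3, trended variance) compared the groups over the 17568 loci that reached 10 in 3 or more libraries. Ratios were tested by exact permutation (scipy 1.17.1, numpy 2.4.6). The alternatives were pseudocounts, minimums, scalings, edgeR 4.0.16 and DESeq2 1.42.0 on recovered reads, a fold change of 2, calls by adjusted p, the replicate block and leaving out each library. Members and lists were chosen with earlier results of these data known. The genes named were the members, loci overlapping them, and in each pathway group those called, or the 2 most changed in each direction where more than 4 were called. Named outside this rule were RHEBL1, KPTN, AKT1 and AKT2, which were not called, IRS1 and DDIT4L, which were below the minimum, and EIF4EBP2. Some pathway genes are not reported here. The series' design text states that the 3 libraries of a group are biological repeats.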

Additional observations from a re-analysis of the deposited data

How the results depend on the processing

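The same 4 members (TSC1, DDIT4 and RHEB higher, DEPTOR lower) were called with pseudocounts of 0.1 and 10, without a minimum and with a minimum of 50, with upper-quartile scaling, with the adjusted p, in edgeR and DESeq2, and without any 1 library. The 2 other scalings and the stricter fold changed the calls, and RHEB and DDIT4 were not called under any of these. Scaled to the same total, 1 member was higher and 2 were lower, and 4 and 20 other pathway genes and 1647 and 5615 loci were called. Scaled to RPL34, 1 member was higher and 3 were lower, with 2 and 33 pathway genes and 1078 and 7524 loci. At a fold change of 2, 1 member was higher and 0 lower (DEPTOR fell short), with 2 and 8 pathway genes and 1353 and 2689 loci. Of the loci at the members, 1 was lower with the same total and 2 with RPL34, against 0 as deposited.

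The log2 fold change changed sign for MTOR (-0.12 with the same total, -0.37 with RPL34), AKT1S1 (-0.080, -0.33), TSC2 (-0.17, -0.42) and RICTOR (0.089 with the upper quartile, and -0.048 to 0.015 without 1 library). Without 1 library, 6714 to 6910 loci, 9 to 11 pathway genes higher and 13 to 14 lower were called.

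No pairing by replicate number was visible, as deviations of libraries with the same number correlated at 0.0017, 0.019 and -0.039. Such values cannot tell whether libraries with the same number were prepared together. With the replicate number as a block, 2745 loci were higher and 4173 lower, with 3 and 1 members and 11 and 13 pathway genes.

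DEPTOR had the fewest reads of the members and the widest interval. The values do not separate spliced from intronic RNA within a member, and 3 libraries a group allow no exact test below 0.1.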
